A study of Mus musculus with 10 samples.

Results

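Pancreatic ductal adenocarcinoma (PDAC) cells of mouse were compared with and without interferon gamma (IFNγ), in cells not selected for their level of PD-L1. The comparison used 7 of the 10 RNA-seq libraries of the study. They are 4 libraries of unstimulated cells and 3 libraries of cells given recombinant mouse IFNγ, chosen by their labels. The labels give strain C57BL/6 and tumor cell for all 7, and name PD-L1 all as the population, which is the whole range of surface PD-L1 seen by flow cytometry. Collection was 20 hours after stimulation, per the labels, and libraries were made with a TruSeq kit. The 3 remaining libraries, of treated cells with high PD-L1, entered the model only to estimate the spread. No source used here gives a cell line, a clone, a dose of IFNγ or separate cultures. The p-values thus reflect only how much these libraries vary, and that variation may be technical. Treated cells of all PD-L1 levels also include those with high PD-L1.

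IFNγ is a cytokine that T cells and natural killer cells release. It binds a receptor of IFNGR1 and IFNGR2 chains, JAK kinases then activate a STAT factor that binds GAS elements, and induced IRF factors act at interferon-stimulated response elements (ISRE). Its best known targets are guanylate-binding proteins, antiviral genes, MHC and antigen processing genes, chemokines and PD-L1. IFNγ is also known to slow the growth of many cell types. Those best known targets were set apart here as 6 lists, and the account below is mainly about the other genes.

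The table gives normalized signal by gene, no source used here names its unit, and the depth of each library is unknown. The signal summed to 698396 to 715500 per library. Profiles correlated at 0.988 to 0.991 among untreated libraries, at 0.990 to 0.992 among treated libraries and at 0.941 to 0.947 between the groups, across the 11487 genes tested. Untreated libraries 3 and 4 tracked libraries 1 and 2. On the log2 scale, the median distance between the mean of libraries 3 and 4 and the mean of libraries 1 and 2 was 0.00262, against 0.0525 and 0.0659 for the other pairings of the same 4 libraries. Whether the 4 are separate measurements was not tested, and if they are not, adjusted p-values against them are too small. Counts over all genes are therefore given also against untreated libraries 1 and 2 alone. The labelled tumor cells had epithelial markers: 9 of 10 had a mean signal of at least 1, with a summed signal of 4346 to 4503 untreated and 5327 to 5354 treated, and Cftr was at 0. So did 9 of the 12 mesenchymal markers, with Vim and Fn1 leading and sums of 6408 to 6493 untreated and 5744 to 5908 treated. No marker of T and NK cells, B cells, endothelium or erythroid cells did, and of the acinar and islet markers 1 of 12 did, Prss2. Of the myeloid markers, Cd14 and Cd68 passed that minimum, with sums of 67.7 to 71 untreated and 94.5 to 95.7 treated, and Adgre1 and Itgam were at 0.

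A gene is said below to have risen or fallen when its limma adjusted p (Benjamini-Hochberg over 11487 genes) was under 0.05 and its change was at least 1.5-fold on the log2(signal + 1) scale, which understates the changes of low genes. By this rule 661 genes rose (5.75%) and 770 fell (6.7%). Against untreated libraries 1 and 2 alone, 646 rose (5.62%) and 733 fell (6.38%), and 642 (5.59%) and 732 (6.37%) passed in both. With the adjusted p alone, 61.9% of genes differed: 2648 genes were higher (23.1%) and 4458 lower (38.8%), or 2061 (17.9%) and 3404 (29.6%) against libraries 1 and 2. The share of higher against lower depends on the scaling: with median-ratio scaling 819 genes rose and 563 fell, and with upper-quartile scaling 781 rose and 592 fell. The groups did not overlap for 62.5% of all genes. Many of the genes named below were chosen among these, so their lack of overlap adds no support. The median log2 fold change over all genes was -0.07. Rises and falls refer to treated and untreated cells of all PD-L1 levels. In the PD-L1 high libraries, also of treated cells, some changes were smaller or absent and others larger. Dusp4 averaged 61.7 there, beside 63.5 untreated and 109 in the treated libraries of all PD-L1 levels. Klf10 averaged 44.8 there and 126 in the treated libraries of all PD-L1 levels, while Apol6 averaged 62.9 and 47.6. Below, values of a gene are its signal in untreated libraries 1 to 4 and then in treated libraries 1 to 3, and numbers in brackets and amounts of a rise, fall or difference are log2 fold changes on the log2(signal + 1) scale, treated minus untreated.

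Most of the genes that changed were outside the 6 known lists. Those lists are not complete, and Ifi47, an immunity-related GTPase, is among the other genes. Of the 142 tested genes of the 6 known lists 121 rose (85.2%) and 3 fell (2.11%), while 540 of the 11345 other genes rose (4.76%) and 767 fell (6.76%). The known lists held 0.776% ± 0.0047 (SD, n = 4) of the summed signal untreated and 3.26% ± 0.004 (SD, n = 3) treated. The 540 other risen genes held 2.11% ± 0.019 untreated and 4.81% ± 0.026 treated. The 770 fallen genes went from 5.55% ± 0.041 to 2.98% ± 0.03 of the signal. These shares are descriptions, since the genes were picked for their change. Among genes with an untreated mean under 1 that passed the filter, 109 of 175 rose and 0 fell, but such genes could pass only through high values in other libraries. Among genes with an untreated mean over 100, where the filter plays no part, 35 of 1146 rose and 67 fell.

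**Figure D1:**
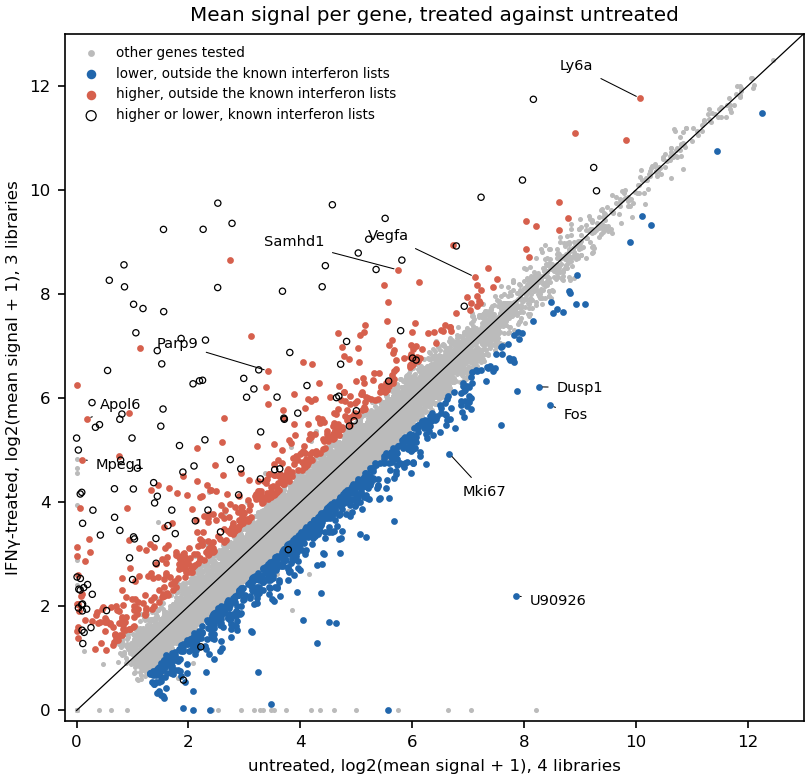
Mean signal of each of the 11487 genes tested in the 4 untreated libraries (x axis) and the 3 IFNγ-treated libraries (y axis), both as log2(mean signal + 1), with the line of equality. Red and blue points are genes that rose and fell outside the 6 known interferon lists (540 and 767), and open circles are the 124 genes of those lists that rose or fell.

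Cd274, which encodes PD-L1, checks the labels. Its signal was 2.60, 2.53, 2.79 and 2.39 in the untreated libraries and 33.6, 32.2 and 33.2 in the treated ones. The receptor gene Ifngr2 rose from 28.3, 32.0, 28.7 and 31.6 to 49.7, 46.4 and 42.9, though it fell short of 1.5-fold when any of 3 single libraries was left out. Ifngr1 was at 120.1, 122, 119 and 122 untreated and 134, 132 and 133 treated, a log2 difference of 0.13 that did not reach 1.5-fold.

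Outside the known lists, 35 further gene lists were described, each by how many of its tested members rose or fell and by its median log2 fold change. The lists ranged from the apolipoprotein L family, at a median of 2.59, to the mitosis list, at -0.84, while most had medians near that of all genes. The apolipoprotein L median rests mainly on members that passed the filter only through treated libraries, so it does not say how that family moved. Each count is to be read against the 5.75% of all genes that rose and the 6.7% that fell, and many of the small counts moved by over 1.5 times among the alternatives.

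**Figure D2:**
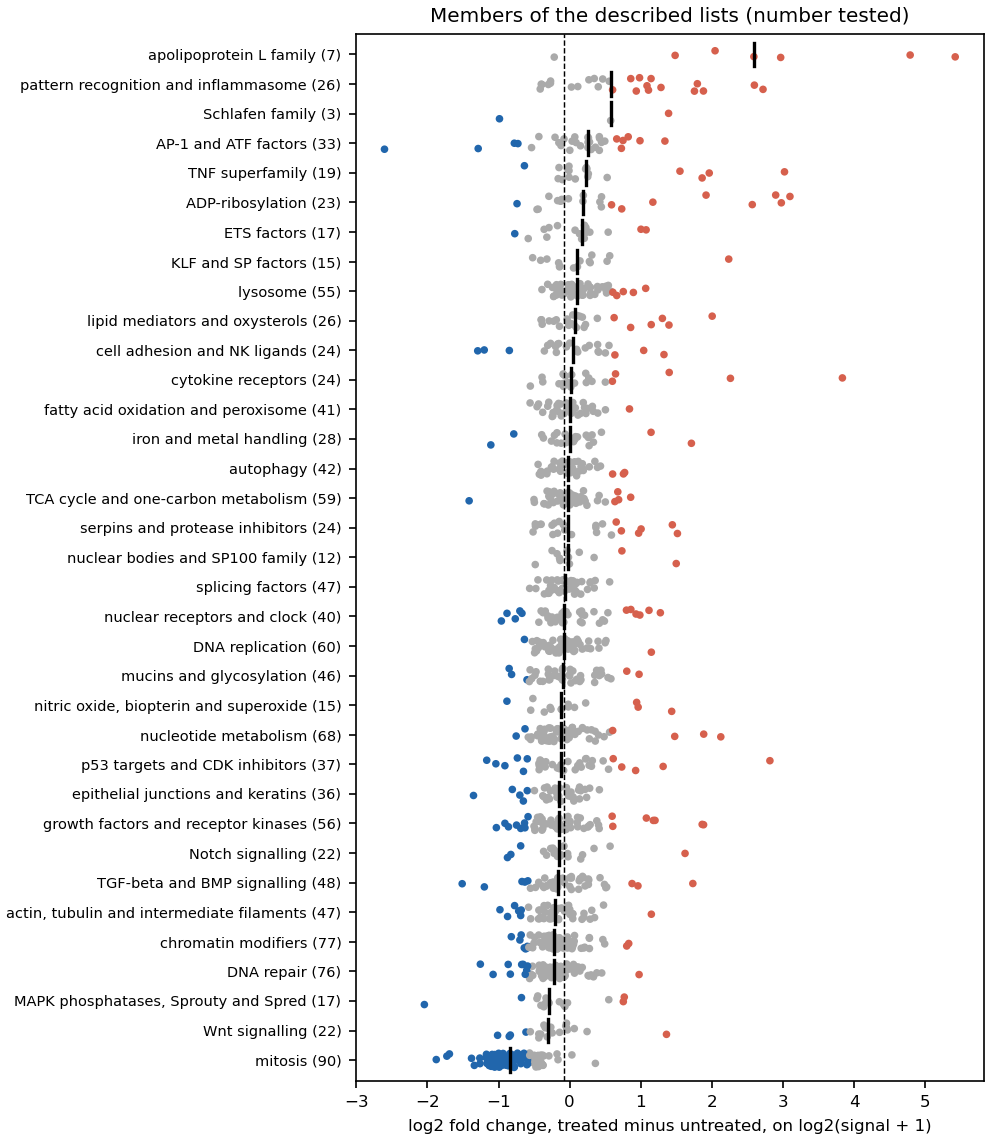
Log2 fold change, treated minus untreated, of each tested member of the 35 described lists, ordered by the list median (black bars); the dashed line is the median of all genes, -0.07. Red members rose, blue members fell and grey members did neither. Apolipoprotein L genes sit to the right and mitosis genes to the left, and most lists hold both red and blue members. Most of the red apolipoprotein L genes passed the filter only through treated libraries.

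Sensors of microbes and danger were among the genes that rose. Of the pattern recognition and inflammasome list, 13 of 26 tested members rose and 0 fell, at a median of 0.58, against 5.75% of all genes; 18 of the 44 members in the table were below the filter, and 1 of the 13, Nod1, passed it only through treated libraries. Casp1, the protease that matures interleukin 1 beta, was at 2.76, 2.72, 2.17 and 3.39 in the untreated libraries and at 22.4, 22.3 and 20.1 in the treated libraries (2.60 ± 0.10 SE, limma adjusted p = 1.9e-09). Casp4, which senses cytosolic lipopolysaccharide in mouse, went from 17.8, 16.6, 18.6 and 16.1 to 60.9, 61.2 and 59.3. Gsdmd, the pore-forming target of both proteases, was 57.1, 68.1, 59.0 and 66.4 before and 155, 147 and 159 after. In none of the 3 did the groups overlap. The surface receptor Tlr2, for bacterial lipoproteins, rose from 3.66, 3.77, 3.77 and 3.70 to 16.5, 16.3 and 16.4. Nod1, a cytosolic sensor of bacterial cell wall fragments, was 0.795, 1.06, 1.04 and 0.839 untreated and 6.001, 5.14 and 5.97 treated. Samhd1, which breaks down deoxynucleoside triphosphates, had 56.1, 49.1, 53.2 and 52.3 untreated and 367, 344 and 344 treated, a log2 fold change of 2.72 ± 0.04 SE (limma adjusted p = 4.9e-13). Signalling parts of the list were mixed: Sting1 (1.14), Ripk2 (1.11) and Ticam1 (0.98) rose, while Mavs, Irak1 and Irak4 had log2 differences of -0.27, -0.27 and -0.30, short of 1.5-fold.

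Receptors for other cytokines rose singly. Of 24 tested cytokine receptor genes 5 rose and 0 fell, beside 5.75% and 6.7% of all genes, and the median of 0.02 was close to that of all genes; 1 of the 5, Il12rb1, passed the filter only through treated libraries. Il12rb1, a chain of the interleukin 12 and interleukin 23 receptors, was nearly silent in the untreated libraries, at 0.0288, 0.0379, 0.0425 and 0.0572, and read 13.99, 14.2 and 13.3 in the treated libraries (3.83 ± 0.05 SE, limma adjusted p = 3.1e-13). Il15ra, which presents interleukin 15 to neighbouring lymphocytes, rose from 3.46, 3.38, 3.18 and 3.74 to 18.9, 21.8 and 20.2. Il13ra1, a chain of the interleukin 13 receptor, was 13.8, 11.9, 12.7 and 12.98 untreated and 35.7, 33.2 and 37.4 treated. Every treated library was above every untreated one for these 3. Il17rc and Il6ra rose by 0.64 and 0.60, close to the 1.5-fold limit. The shared chains Il6st and Ifnar1 differed by 0.07 and 0.03 and did not pass the test.

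In the TNF superfamily, which holds death receptors and their ligands, 4 of the 19 tested members rose against 1, Eda, that fell, beside 5.75% and 6.7% of all genes. Of the 4, Tnfsf10 and Tnfrsf14 passed the filter only through treated libraries, and over the alternatives 3 to 5 rose. Fas, the receptor for Fas ligand, was at 2.40, 1.495, 2.06 and 1.91 untreated and at 10.3, 11.2 and 9.97 treated, with a log2 fold change of 1.96 ± 0.10 SE (limma adjusted p = 3.2e-08). Tnfsf10, which encodes the death ligand TRAIL, was 0.0572, 0.00283, 0.0241 and 0.0534 in the untreated libraries and 2.51, 2.62 and 3.18 in the treated libraries. Tnfsf13b, the B cell survival factor BAFF, rose from 2.59, 1.55, 2.001 and 2.21 to 8.77, 8.52 and 6.77. Groups stayed apart in all 3. Tnfrsf14, the receptor HVEM, was 0.222, 0.00397, 0.0604 and 0.354 untreated and 5.91, 13.1 and 7.36 treated, and the treated libraries themselves were widely spread. The receptor genes Tnfrsf1a (0.26) and Tnfrsf10b (0.24) passed the adjusted p alone and not 1.5-fold.

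Apolipoprotein L genes, cytosolic lipid-binding proteins, were low or silent in untreated cells apart from Apol9b and Apol8. Of the 7 tested members 6 rose and 0 fell, and 6 of the 13 members were below the filter. But 5 of the 6 risen members (Apol6, Apol7a, Apol7e, Apol9a and Apol10b) averaged under 1 untreated and passed the filter only through treated libraries, so neither the count nor the median says how the family moved; over the alternatives 3 to 6 rose. Apol6 was 0.0235, 0.150, 0.171 and 0.200 untreated and 47.1, 46.8 and 48.8 treated. Apol9a was 0.531, 1.27, 0.980 and 0.877 untreated and 50.04, 51.8 and 52.2 treated, and its near copy Apol9b, which started higher, went from 23.3, 25.5, 23.3 and 25.5 to 153, 148 and 154. How the authors' counting split reads between such copies is not known. Apol7e and Apol10b were listed at 0 in all 4 untreated libraries and read 5.70, 7.03 and 7.87 and 3.11, 3.13 and 3.13 in the treated libraries. The member that did not pass was Apol8, at a log2 difference of -0.22.

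Enzymes that write ADP-ribose, a mark put on proteins during DNA damage and infection, rose in part. Of 16 tested writers 7 rose and 0 fell, beside 5.75% and 6.7% of all genes, with a median of 0.45 over all 16. Of the 7 tested partners and erasers 1 rose and 1 fell, at a median of -0.02. Parp9 was at 9.46, 9.9998, 9.48 and 10.04 in the untreated libraries and at 93.0, 88.4 and 91.3 in the treated ones, a log2 fold change of 3.10 ± 0.03 SE (limma adjusted p = 3.3e-14). Its partner ubiquitin ligase Dtx3l went from 5.26, 4.77, 4.85 and 5.24 to 36.5, 33.1 and 34.6; their annotated spans overlap, and whether the counting used strand is not given, so reads there could be shared. Parp12 rose from 5.50, 4.88, 5.13 and 5.35 to 48.7, 46.5 and 48.3. Parp14 was 3.96, 2.87, 3.42 and 3.45 untreated and 31.9, 30.6 and 33.1 treated. All 4 moved by similar factors with no overlap between groups. Parp1 and Parp2, the DNA break sensors, differed by -0.46 and -0.44, which passed the adjusted p and not 1.5-fold.

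Promoters of leading genes are shown because interferon elements are defined by their letters. Each runs from 250 bases before to 50 bases after the start that the RefSeq-based promoter table gives for the gene, 5′ to 3′ on the strand of the gene, on GRCm38.p6. Capitals mark matches, on either strand, to the ISRE pattern of GAAA, any 2 bases and GAAA, the GAS pattern TTCNNNGAA, the CHR pattern TTTGAA or the CCAAT box. No match of 1 motif overlapped that of another, but the 2 ISRE matches of Apol9a overlap each other. Ifi47, an immunity-related GTPase that was not in the known lists, lies at chr11:49076337-49076636 (plus strand), Apol9a at chr15:77411031-77411330 (minus), Mpeg1 at chr19:12460520-12460819 (plus), U90926 at chr5:92215359-92215658 (minus) and Dtx3l at chr16:35938978-35939277 (minus).
Ifi47: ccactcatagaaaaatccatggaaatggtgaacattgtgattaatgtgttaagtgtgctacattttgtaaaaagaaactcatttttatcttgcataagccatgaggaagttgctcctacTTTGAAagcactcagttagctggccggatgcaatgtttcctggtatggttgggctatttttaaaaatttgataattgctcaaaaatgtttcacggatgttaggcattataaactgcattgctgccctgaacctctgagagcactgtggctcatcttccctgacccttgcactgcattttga
Apol9a: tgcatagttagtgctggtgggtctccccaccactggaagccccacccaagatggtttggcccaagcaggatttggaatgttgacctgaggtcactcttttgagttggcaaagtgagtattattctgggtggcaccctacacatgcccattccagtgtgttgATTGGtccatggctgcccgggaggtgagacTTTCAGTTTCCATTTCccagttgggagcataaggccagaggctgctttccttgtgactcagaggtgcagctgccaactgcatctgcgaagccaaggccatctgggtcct
Mpeg1: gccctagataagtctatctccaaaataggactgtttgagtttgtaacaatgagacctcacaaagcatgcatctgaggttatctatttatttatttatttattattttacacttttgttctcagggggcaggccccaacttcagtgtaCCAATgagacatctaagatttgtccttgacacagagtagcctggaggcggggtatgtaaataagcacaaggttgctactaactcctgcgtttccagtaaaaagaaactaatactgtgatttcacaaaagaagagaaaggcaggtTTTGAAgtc
U90926: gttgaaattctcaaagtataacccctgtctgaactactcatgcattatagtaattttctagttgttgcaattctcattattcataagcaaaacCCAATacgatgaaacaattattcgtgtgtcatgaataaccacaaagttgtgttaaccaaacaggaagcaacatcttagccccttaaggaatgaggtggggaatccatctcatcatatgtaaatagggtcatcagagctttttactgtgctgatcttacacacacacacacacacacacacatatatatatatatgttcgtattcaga
Dtx3l: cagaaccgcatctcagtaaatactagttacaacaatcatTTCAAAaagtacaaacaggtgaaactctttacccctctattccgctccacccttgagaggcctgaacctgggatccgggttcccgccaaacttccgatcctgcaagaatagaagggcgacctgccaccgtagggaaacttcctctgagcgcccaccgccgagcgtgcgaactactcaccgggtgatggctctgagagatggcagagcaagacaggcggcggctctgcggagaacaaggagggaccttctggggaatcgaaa
Of these 5 promoters, that of Apol9a alone held an ISRE match, and none held a GAS match.

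Over all promoters the ISRE was found in 3.49% of 27025 and the GAS in 8.47%. Of the 83 risen genes of the known lists with a promoter entry, 48.2% held an ISRE and 22.9% a GAS. Of the 424 risen genes outside those lists, 8.49% held an ISRE and 7.31% a GAS, beside 3.16% and 6.83% over the 9233 tested genes with an entry. For the 161 of them that changed at least 2-fold, the shares were 12.4% and 8.7%. Read from the motif, 26% of the 292 tested genes with an ISRE rose, against 4.82% of the 8941 without. Outside the known lists these figures were 14.5% of 248 and 4.37% of 8883. Since the known lists are not complete, genes outside them can still include known interferon targets. A match is a string of letters in this window and is not a measured site.

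Several genes that rose with large factors belong to none of the lists. Ifi47 was at 1.24, 1.07, 1.23 and 1.2 untreated and at 125, 122.7 and 126 treated. Mpeg1, the pore-forming perforin-2, was 0.0920, 0.0104, 0.121 and 0.0618 untreated and 28.2, 26.2 and 27.4 treated; it is best known from macrophages. Of the 12 myeloid markers Cd14 and Cd68 were above 1 and higher in treated cells (0.42 and 0.75), with sums of 67.7 to 71 untreated and 94.5 to 95.7 treated, while Adgre1 and Itgam were at 0; the part of myeloid cells in the rise of Mpeg1 was not tested. Ubd, a ubiquitin-like modifier, was at 0 in the 4 untreated libraries and at 7.08, 7.99 and 8.53 in the treated libraries. All 3 genes had no overlap between groups. Slamf8, a leukocyte surface protein, went from 0.0632, 0.145, 0.146 and 0.102 to 7.08, 5.97 and 5.99. Wars, the tryptophanyl-tRNA synthetase, rose from 42.4, 45.6, 42.99 and 44.9 to 288, 289 and 282. Upk3bl rose by 2.88 ± 0.14 SE, and near-identical copies make its value uncertain.

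On the linear scale, 2 genes of the Ly6 family of GPI-anchored surface proteins had the highest gains after B2m. Ly6a, known as the stem cell antigen Sca-1, was 1076, 1079.5, 1066 and 1084 untreated and 3438, 3505 and 3465 treated (1.69 ± 0.01 SE, limma adjusted p = 1.8e-15). Ly6c1 went from 479, 486, 477 and 488 to 2187, 2210.0 and 2180.4. Plac8, a small cysteine-rich protein described in pancreatic cancer invasion, rose from 905, 917, 904 and 913 to 1988, 2010.1 and 1993. Ly6 genes have close relatives, so the split of reads among them is uncertain. Treated libraries of these genes differed among themselves by far less than the groups did. Ly6e was 1613, 1674, 1626 and 1649.9 untreated and 2320.1, 2297 and 2304 treated, a log2 difference of 0.49 that stayed under 1.5-fold.

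Risen genes often lay side by side. At least 2-fold changes with the adjusted p were found in 4.25% of all genes, and in 4.07% against untreated libraries 1 and 2 (2.76% higher and 1.31% lower). Of the 323 genes that rose by that much, 37.5% had another such gene within 100 kb, beside 7.98% of the 11447 tested genes with a position. They formed 41 runs, 20 of them with 3 or more genes, and the longest held MHC and antigen processing genes and interferon-inducible GTPases. Of the 165 genes that fell at least 2-fold, 7.88% had a fallen neighbour, beside 5.22% of all genes tested, in 6 runs. Near copies share letters, so that part of these runs can come from reads counted for both copies, which was not tested. Outside the known lists the runs included 4 Ly6 genes and 3 apolipoprotein L genes on chromosome 15, Parp14, Dtx3l and Parp9 on chromosome 16, Casp1, Casp4 and Casp12 on chromosome 9, and Uggt1, Neurl3 and Arid5a on chromosome 1. Genes beside the runs varied: on either side of the Parp run, Hspbap1 differed by -0.06 and Kpna1, an importin, rose by 0.67, and next to the apolipoprotein L run, Myh9 differed by -0.26.

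**Figure D3:**
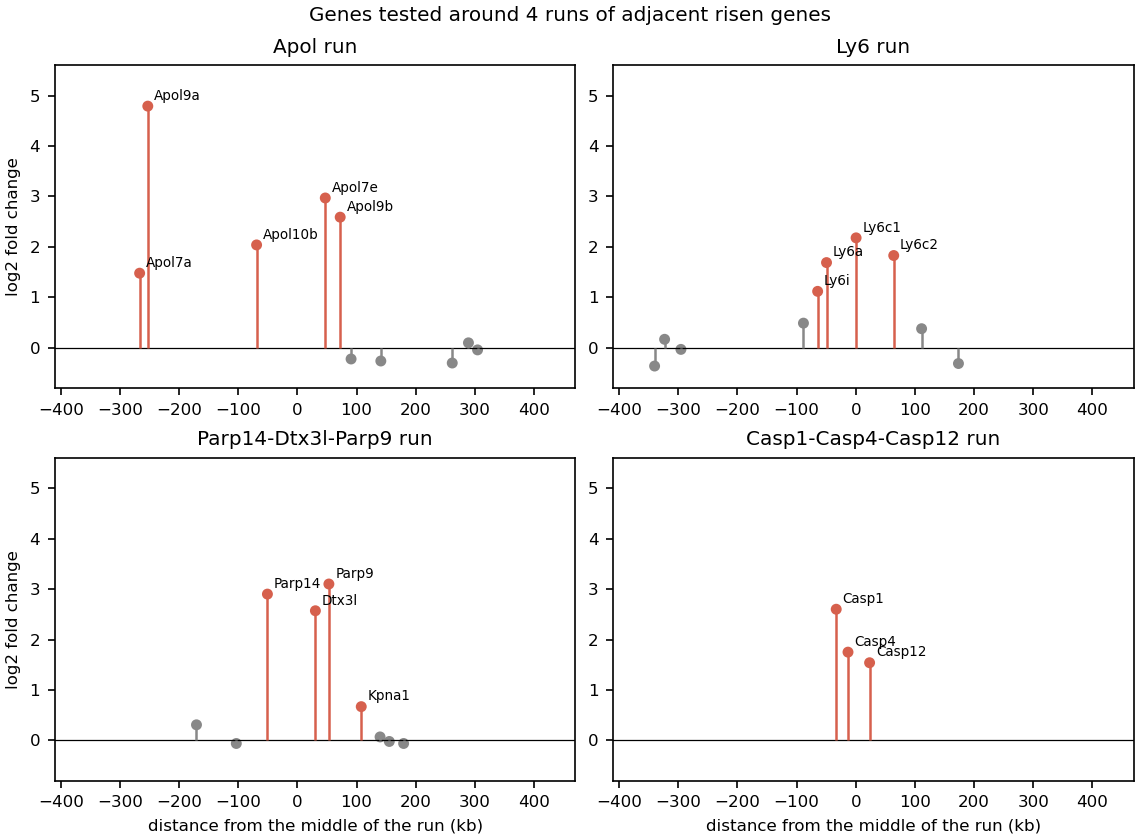
Log2 fold change, treated minus untreated, of every tested gene around 4 runs of risen genes, against distance in kb from the middle of the run. Red genes rose and are named, and grey genes did neither; no gene outside the run was tested near Casp1, Casp4 and Casp12.

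Over the 33 tested AP-1, ATF and C/EBP genes 6 rose and 4 fell, beside 5.75% and 6.7% of all genes, at a median of 0.26. Fos, a component of the AP-1 factor, was at 352, 354, 353 and 351 in the untreated libraries and at 59.1, 57.1 and 55.3 in the treated libraries, a log2 fold change of -2.60 ± 0.03 SE (limma adjusted p = 1.2e-14). Egr1, a zinc finger factor that growth signals induce, went from 197, 188, 191 and 192.3 to 46.4, 41.8 and 43.8. Dusp1, a phosphatase that turns MAP kinases off, was 306, 305, 303 and 307 untreated and 75.1, 72.5 and 72.4 treated. Fosb fell from 121, 120.4, 119.7 and 121 to 51.7, 46.6 and 48.2. For these 4 genes the untreated libraries lay within a few percent of each other and far above the treated ones. Egr1 belongs to none of the lists. The AP-1 partner Jun differed by -0.54, short of 1.5-fold, Junb was higher by 0.42, and Fosl1 rose from 64.6, 58.7, 62.4 and 60.7 to 107, 112 and 110.2. Cebpb, Crem, Creb3 and Fosl2 rose by 0.99, 0.75, 0.73 and 0.66, and Maf (-0.73) and Atf5 (-0.78) fell.

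Other transcription factors rose. Klf10, a factor also induced by TGF-beta, was at 25.8, 26.1, 24.8 and 27.1 untreated and at 128, 122.6 and 127 treated (2.24 ± 0.03 SE, limma adjusted p = 4.9e-13), and it was the only 1 of the 15 KLF and SP genes to rise. Cebpa, a differentiation factor, went from 10.7, 12.8, 11.1 and 12.5 to 30.6, 33.4 and 29.7. Elf3 and Ehf, ETS factors of epithelia, rose from 16.8, 16.7, 16.02 and 17.5 to 36.4, 36.3 and 36.4 and from 10.7, 10.3, 10.3 and 10.7 to 22.6, 21.9 and 21.6. Etv5, an ETS factor that responds to ERK signalling, fell from 27.8, 25.5, 26.6 and 26.6 to 15.9, 14.5 and 15.2. The related Etv4 differed by -0.58, just short of 1.5-fold.

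Of the 40 tested nuclear receptor and clock genes 6 rose and 5 fell, and 29 did neither, beside 5.75% and 6.7% of all genes. Cry1 (1.115), Cry2 (0.86), Per1 (0.99), Nfil3 (0.93) and Bhlhe40 (0.80), all repressors of the clock or its outputs, rose. Per3 (-0.96), also a repressor, and the output activators Dbp (-0.88) and Tef (-0.70) fell. Cry1 was 3.04, 2.99, 2.78 and 3.26 untreated and 7.29, 7.81 and 7.999 treated, and Dbp was 89.2, 100.3, 93.2 and 96.0 untreated and 54.5, 50.2 and 48.3 treated. Arntl, the core activator also called Bmal1, was higher by 0.54, and Clock differed by 0.15 without passing the test. The labels give 1 collection time, so clock phase at collection and treatment cannot be told apart if the groups were collected at different hours. Among nuclear receptors Nr3c2, the mineralocorticoid receptor, rose by 1.27, and Rarb (-0.76) and Nr2f1 (-0.67) fell.

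Some secreted growth and colony-stimulating factors rose, and nearly as many fell. Of 33 tested ligands 7 rose and 6 fell, and of 23 tested receptor kinases 0 rose and 2 fell, beside 5.75% and 6.7% of all genes. The medians were 0.01 and -0.26. Of the 7 ligands, Artn averaged 0.422 untreated and passed the filter only through treated libraries. Vegfa, the main factor of vessel growth, was at 143, 135, 134 and 143 untreated and at 317, 318 and 324 treated (1.2 ± 0.03 SE, limma adjusted p = 2.1e-11). Gdf15, a stress hormone of the TGF-beta superfamily, went from 295, 300.01, 292 and 302 to 618, 641 and 626. Csf2 and Csf3, which drive the making of myeloid cells, were 4.20, 4.18, 3.42 and 5.05 and 1.35, 1.599, 1.67 and 1.298 untreated and rose to 18.2, 18.7 and 16.6 and to 8.09, 7.58 and 8.72. The treated libraries of these 4 genes were all above the untreated ones. In the PD-L1 high libraries, also of treated cells, Vegfa and Gdf15 averaged 171 and 330, and Csf2 and Csf3 averaged 10.6 and 3.29. Each of these means was below that of treated cells of all PD-L1 levels. Of the ephrin and Eph receptor genes in this list, Efna4 (-0.91), Efnb1 (-0.75), Efnb2 (-0.63), Ephb3 (-1.03) and Ephb4 (-0.69) fell and Efna1 rose (0.61), while Efna5, Epha2, Ephb2 and Ephb6 differed by 0.25, 0.11, -0.15 and -0.45 without reaching 1.5-fold. They were grouped after their values were seen. Egfr and Erbb2 differed by -0.33 and -0.39, short of 1.5-fold.

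Feedback genes of growth pathways changed singly. Among 17 MAP kinase phosphatase, Sprouty and Spred genes 2 rose and 2 fell; Dusp4 (0.77) and Dusp10 (0.75) rose and Spry2 (-0.68) fell beside Dusp1. In the Wnt list 1 of 22 rose, the secreted inhibitor Sfrp1, from 4.95, 5.05, 5.03 and 4.97 to 14.5, 14.3 and 14.4, and 4 fell, namely Wnt5b (-1.01, with 8.01, 17.1, 7.80 and 17.9 untreated and 8.22, 4.46 and 4.10 treated, so that the groups overlapped), Wnt7b (-0.61), the receptor Fzd5 (-0.85) and Tcf7l1 (-0.83). In the Notch list 1 of 22 rose, the feedback inhibitor Nrarp, from 12.9, 14.7, 14.6 and 13.1 to 45.04, 44.1 and 44.7, and 3 fell, the target gene Hey1 (-0.87), Dtx1 (-0.83) and Numbl (-0.69). In the TGF-beta and BMP list 3 of 48 rose and 5 fell, among them Bmp2 (0.96) and Fstl1 (0.88) upward and Ltbp4, which tethers latent TGF-beta (-1.199), downward. Fst, a secreted trap of activins, rose from 18.8, 17.5, 17.4 and 18.9 to 62.9, 63.5 and 61.2 (1.73 ± 0.04 SE, limma adjusted p = 1.1e-11). Ccn2, a target of TGF-beta and YAP, fell from 75.5, 75.0, 74.3 and 75.9 to 28, 23.4 and 25.9. These counts are small, and stand beside 5.75% and 6.7% of all genes: over the alternatives 2 to 4 Wnt genes, 1 to 3 Notch genes and 3 to 5 TGF-beta and BMP genes fell.

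Genes of mitosis fell as a group. Of the 90 tested members of the mitosis list 66 fell and 0 rose, against 6.7% of all genes falling. The median log2 fold change was -0.84. Of the 66, 65 also fell against untreated libraries 1 and 2. By the adjusted p alone 86 members were lower, beside 38.8% of all genes. Kinases, cyclins and regulators (22 of 30 fell) and kinetochore, spindle and condensin genes (44 of 60 fell) both had a median of -0.84. Over all alternatives tried, 61 to 66 members fell. Mki67, the proliferation antigen, was at 106, 95.3, 98.4 and 102 in the untreated libraries and at 30.1, 27.8 and 30.9 in the treated libraries, a log2 fold change of -1.73 ± 0.05 SE (limma adjusted p = 8.8e-11). Ccnf, cyclin F, was 32.6, 37.9, 34.2 and 36.2 before and 12.3, 7.28 and 7.68 after, so treated library 1 stood above the other treated libraries yet below all untreated ones. Aspm, a spindle pole protein, went from 35.5, 29.8, 32.3 and 33.0 to 9.92, 8.58 and 9.76. Plk1, the polo-like kinase, fell from 108, 109, 108 and 107 to 42.8, 42.4 and 40.95. Groups stayed apart in each of these. Cyclin B1 (Ccnb1) fell by 1.05 and its kinase partner Cdk1 differed by -0.52, short of 1.5-fold; Mybl2 was the 1 member that was higher, by 0.36. In bulk samples fewer cells in mitosis and less RNA per cell cannot be told apart.

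Few DNA replication genes rose or fell, though the difference between the mitosis and replication lists was not tested. Of 60 tested members 1 rose and 1 fell, beside 5.75% and 6.7% of all genes. The median was -0.08 beside -0.07 for all genes, and over the alternatives 0 to 2 rose and 0 to 1 fell. By the adjusted p alone 15 members were higher and 25 lower, beside 23.1% and 38.8% of all genes. Mcm2, of the replicative helicase, was at 81.4, 79.96, 79.3 and 81.7 untreated and at 80.3, 80.4 and 76.6 treated, and the groups overlapped. Pcna, the polymerase clamp, was 365, 356, 356 and 362 untreated and 380.2, 379 and 380.4 treated, a log2 difference of 0.08. E2f2, an activator of S phase genes, rose from 2.49, 2.54, 2.51 and 2.52 to 6.97, 6.81 and 6.57, and Pold1, the catalytic subunit of polymerase delta, fell by 0.64, close to the limit. Per library, the median mitosis gene was -0.80, -0.86 and -0.82 from the untreated mean in the treated libraries, while the median replication gene was -0.10, -0.10 and -0.07. In the 4 untreated libraries the median mitosis gene lay between -0.01 and 0.01. In the PD-L1 high libraries, also of treated cells, the median mitosis gene was at -0.42, -0.45 and -0.42. The median replication gene there was at -0.15, -0.19 and -0.17, so the 2 lists lay closer together than in the treated libraries of all PD-L1 levels.

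**Figure D4:**
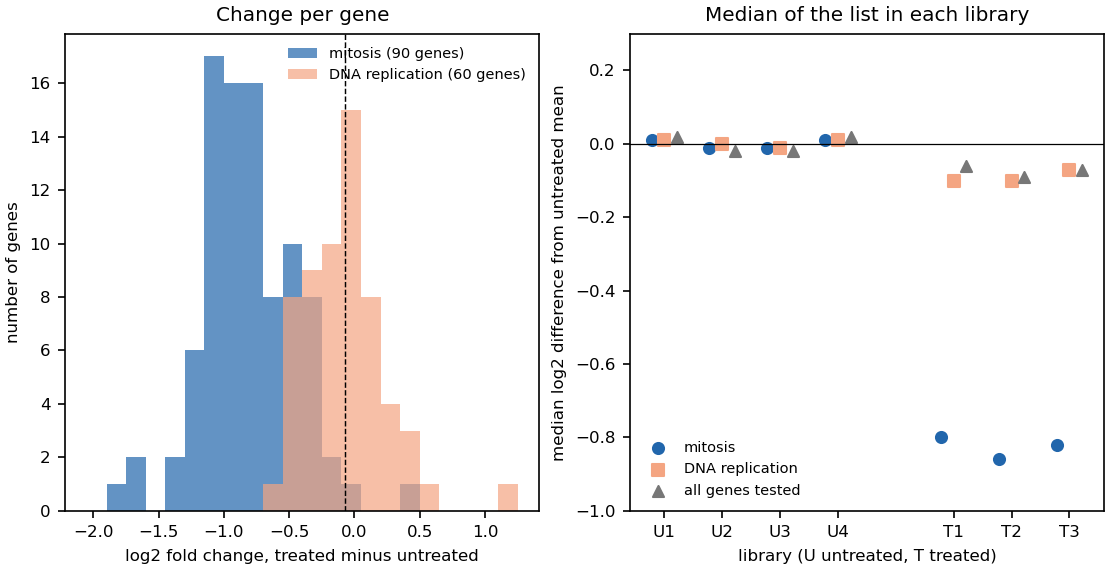
Left, counts of mitosis genes (90, blue) and DNA replication genes (60, orange) by log2 fold change, treated minus untreated, with the median of all genes dashed. Right, the median log2 difference from the untreated mean in each library, for each list and for all genes tested (grey): the mitosis list sits between -0.86 and -0.80 in the 3 treated libraries, and the replication list between -0.10 and -0.07.

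Promoters of the 3 mitosis genes that changed most are shown for the CHR and CCAAT motifs, through which cell cycle genes are known to be repressed and activated. They lie at chr17:24251360-24251659 (Ccnf, minus strand), chr7:135716330-135716629 (Mki67, minus) and chr1:139454523-139454822 (Aspm, plus), with the source and capitals as above. The table's start for Aspm and Mki67 lies inside the annotated span of the gene, so that the Aspm window is wholly within it.
Ccnf: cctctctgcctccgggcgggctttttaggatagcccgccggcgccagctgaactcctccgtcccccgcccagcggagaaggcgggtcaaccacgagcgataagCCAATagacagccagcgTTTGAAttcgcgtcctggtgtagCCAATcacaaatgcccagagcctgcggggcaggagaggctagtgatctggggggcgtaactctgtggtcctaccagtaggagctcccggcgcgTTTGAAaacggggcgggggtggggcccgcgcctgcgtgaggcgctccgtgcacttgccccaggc
Mki67: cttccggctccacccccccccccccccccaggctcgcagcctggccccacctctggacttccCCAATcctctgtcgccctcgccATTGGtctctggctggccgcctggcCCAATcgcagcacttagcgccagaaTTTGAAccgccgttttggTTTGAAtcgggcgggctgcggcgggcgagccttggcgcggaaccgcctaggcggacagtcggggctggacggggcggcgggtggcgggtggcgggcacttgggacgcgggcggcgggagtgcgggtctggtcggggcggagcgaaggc
Aspm: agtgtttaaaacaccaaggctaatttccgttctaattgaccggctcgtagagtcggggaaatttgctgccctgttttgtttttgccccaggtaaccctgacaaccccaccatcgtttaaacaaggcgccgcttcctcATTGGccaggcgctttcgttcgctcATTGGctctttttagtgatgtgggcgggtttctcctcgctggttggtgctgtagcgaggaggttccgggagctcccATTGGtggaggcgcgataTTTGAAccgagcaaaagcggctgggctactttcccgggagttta
All 3 promoters hold both motifs, with 2 or 3 CCAAT matches each and 1 or 2 CHR matches. The CHR was found in 18.1% of all 27025 promoters, in 11.7% of those of tested genes, in 62.3% of the 77 mitosis promoters and in 14.3% of the 49 DNA replication promoters. The CCAAT box was found in 37.9% of all promoters, 74% of the mitosis promoters and 57.1% of the replication promoters. Within the mitosis list, 71.9% of the 57 promoters of fallen genes held a CHR, and 35% of the 20 others did. Outside that list, 11.5% of the 434 genes with both motifs fell, beside 5.73% of the 8722 without both. These are counts of letters, and binding was not measured.

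Of 76 tested DNA repair genes 10 fell and 1 rose, at a median of -0.22, beside 6.7% and 5.75% of all genes; over the alternatives 5 to 13 fell. The fallen genes included Mdc1, a scaffold at double-strand breaks, from 45.2, 44.9, 44.8 and 45.1 to 17.3, 18.2 and 19.3, the Fanconi genes Fancd2 (-1.08) and Fanci (-0.67), and Brca2 (-0.83). Ung, which removes uracil from DNA, rose by 0.98. Of 37 tested p53 targets and CDK inhibitors 5 rose and 6 fell, beside 5.75% and 6.7% of all genes. The CDK inhibitors did not move one way: Cdkn1a (p21) rose from 7.28, 6.47, 7.13 and 6.63 to 12.3, 10.4 and 10.4, while Cdkn2b (p15), Cdkn2c and Cdkn2d fell, Cdkn2b from 117, 118, 116 and 118 to 47.2, 57.1 and 51.4. Gadd45b, a stress gene, rose from 8.47, 10.5, 9.71 and 9.35 to 74.6, 71.1 and 72.7 (2.81 ± 0.06 SE, limma adjusted p = 1.2e-11), and Gadd45g rose by 1.31. Bak1, which opens mitochondria in cell death, rose by 0.93, while Btg2 (-0.91) and Plk2 (-1.04) fell and Mdm2 (0.08) and Phlda3 (-0.02) did not pass. Of the cytoskeleton list 6 of 47 fell and 1 rose. Tuba1c, an alpha tubulin, fell from 385, 385, 382 and 385 to 209, 209 and 210.3, Lmnb1 (lamin B1) fell by 0.77, and Tubb3, a neuronal-type beta tubulin, rose from 28.9, 28.4, 28.2 and 29.0 to 64.7, 63.6 and 65.5; reads of tubulin genes can be shared with their near copies. Outside the lists, the kinesin Kifc5b (-2.18 ± 0.18 SE), Ankle1 (-1.69) and Arhgef39 (-1.601) fell; Kifc5b is a near copy of Kifc1, a member of the mitosis list.

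**Figure D5:**
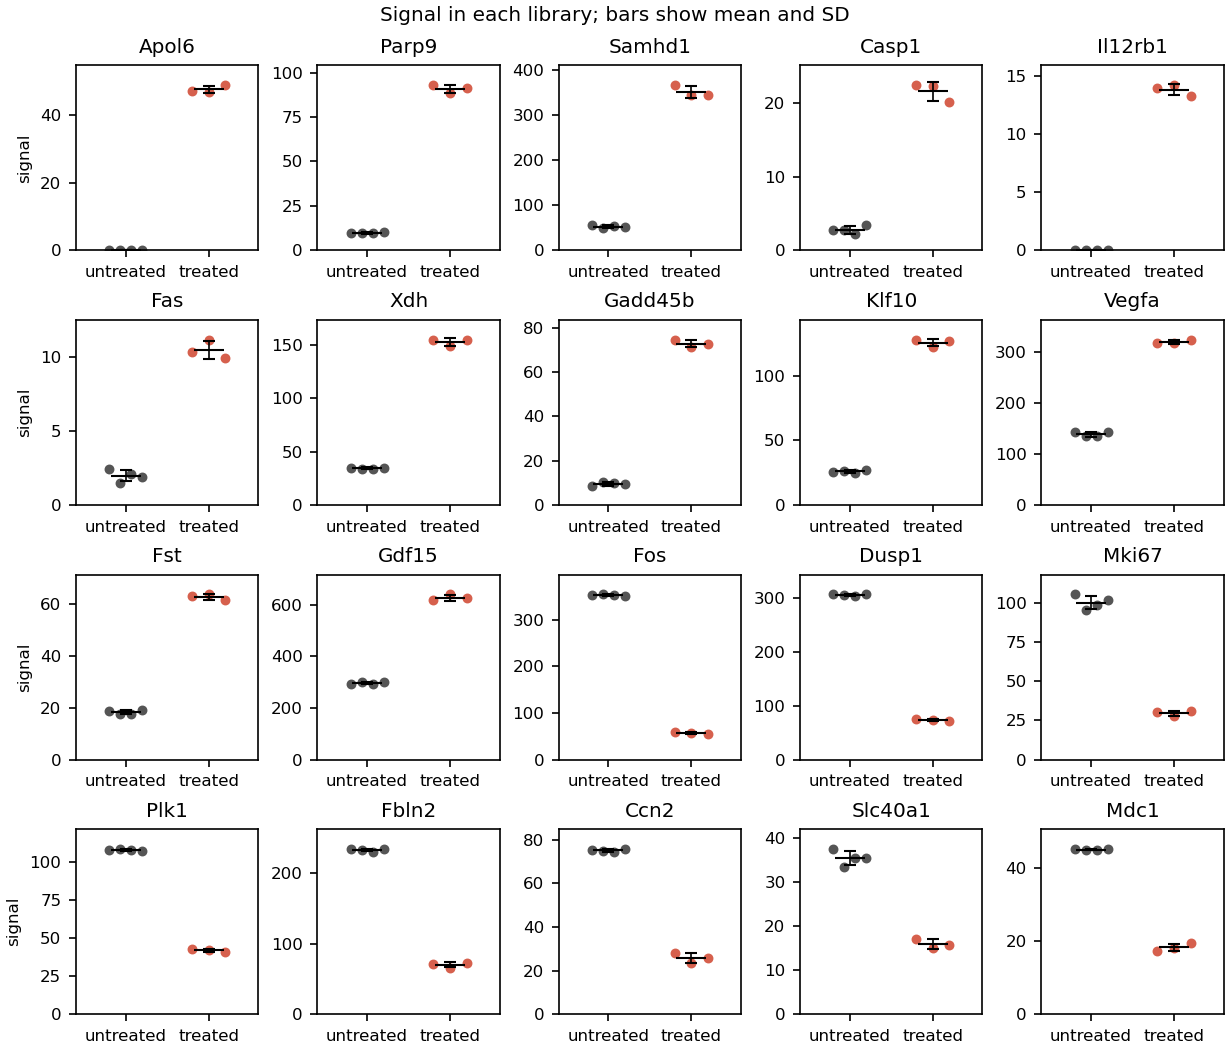
Signal of 20 genes described in the text in each of the 4 untreated libraries (grey) and 3 treated libraries (red), each panel from 0 on its own scale, with mean and SD as black bars. The groups do not overlap in any panel, but the genes were chosen for this, and 62.5% of all genes do the same. The spread within groups is small beside the difference.

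Single metabolic genes had large changes, while the counts of their lists lay mostly near the 5.75% of all genes that rose and the 6.7% that fell. Xdh, the xanthine oxidase of purine breakdown, was at 34.96, 33.5, 33.5 and 34.9 untreated and at 155, 149 and 155 treated (2.12 ± 0.03 SE, limma adjusted p = 8.5e-14). Upp1, a uridine phosphorylase, went from 3.65, 3.56, 3.798 and 3.51 to 16.97, 18.04 and 13.6. Together with Pnp and Entpd4 they were the 4 of 29 salvage and breakdown genes that rose, and 0 fell. Of 39 synthesis genes 0 rose and 2 fell, Cad, which starts pyrimidine synthesis (-0.75), and Adssl1 (-0.63). Gch1, which makes the biopterin cofactor of nitric oxide synthase, rose from 0.523, 0.623, 0.644 and 0.507 to 2.0, 2.02 and 2.045. Sod2, the mitochondrial superoxide dismutase, rose from 82.3, 72.2, 80.1 and 74.3 to 147, 157 and 149.7. Cybb, the NADPH oxidase subunit known from phagocytes, rose from 0.211, 0.201, 0.222 and 0.222 to 1.79, 2.61 and 2.50. Gch1 and Cybb averaged 0.574 and 0.214 untreated and passed the filter only through treated libraries. Of 59 tested TCA cycle and one-carbon genes 4 rose and 1 fell; the glycine cleavage gene Amt fell from 5.32, 4.44, 4.51 and 5.26 to 1.13, 1.56 and 0.958. In fatty acid oxidation and peroxisomes 1 of 41 rose, Acadl, by 0.84.

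Of 28 tested genes of iron and metal handling 2 rose and 2 fell, near the 5.75% and 6.7% of all genes. Slc40a1 (ferroportin), the iron exporter, fell from 37.5, 33.5, 35.4 and 35.5 to 17.1, 15.02 and 15.6, and Tfrc, the transferrin receptor for iron uptake, fell from 59.6, 52.3, 55.7 and 56.1 to 33.5, 30.5 and 32.0. The metal buffers Mt2 and Mt3 rose by 1.14 and 1.71, while Mt1 differed by 0.27. Mt3 averaged 0.756 untreated and passed the filter only through treated libraries. Of 26 genes of lipid mediators 6 rose and 0 fell, beside 5.75% and 6.7% of all genes. They were led by the phospholipase Plaat3, from 1.11, 1.23, 1.04 and 1.32 to 7.95, 7.61 and 7.58, and Ch25h, which makes the antiviral oxysterol 25-hydroxycholesterol, from 1.44, 1.87, 1.88 and 1.47 to 6.17, 6.27 and 5.57. The groups did not overlap in either. Ptger3, another of the 6, averaged 0.694 untreated and passed the filter only through treated libraries. Of 55 lysosomal genes 5 rose and 0 fell, beside 5.75% and 6.7% of all genes, and over the alternatives 4 to 10 rose. The 5 were Cln8, the myeloid marker Cd68 (0.75), the sialidase Neu1 (1.07), Tmem192 (0.90) and Scarb2 (0.66). In autophagy 3 of 42 rose and 0 fell, with the receptor Sqstm1 (p62) from 390.2, 403, 393 and 398 to 601, 598 and 609.

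At the cell surface, the leukocyte adhesion genes Icam1 and Vcam1, ligands of integrins, rose, Icam1 from 1.58, 1.42, 1.61 and 1.40 to 5.09, 5.36 and 5.36 and Vcam1 from 40.6, 36.6, 37.0 and 40.2 to 82.6, 78.4 and 79.99. Ncam1, the neural adhesion molecule, fell from 15.01, 12.6, 13.3 and 14.3 to 5.54, 4.69 and 4.91, and Alcam fell by 0.85. Ulbp1, a ligand of the NK receptor NKG2D, fell from 13.5, 8.36, 10.7 and 11.2 to 4.09, 3.88 and 4.44, and Clec2d, a ligand that inhibits NK cells, rose by 0.64. Of 36 tested junction and keratin genes 0 rose and 5 fell, with Cldn7 at -1.35, Gja1 (connexin 43) at -0.81 and Krt7 at -0.70. Krt8, Krt18 and Krt19 differed by 0.24, 0.42 and 0.06, short of 1.5-fold. Protease inhibitors and clotting genes rose in 6 of 24 cases and fell in 0, beside 5.75% and 6.7% of all genes; 1 of the 6, Serpina3f, passed the filter only through treated libraries. Tissue factor (F3) rose from 144, 141, 138 and 146 to 293, 279 and 287, the elastase inhibitor Slpi from 51.6, 41.7, 50.2 and 43.4 to 121, 132 and 131, and Serpinb9, the granzyme B inhibitor, from 9.15, 7.90, 8.61 and 8.44 to 18.8, 16.9 and 17.2. Of 42 glycosyltransferases 2 rose and 3 fell, with Gcnt1 and Fut8 at 0.98 and 0.80.

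The largest loss of signal on the linear scale was in S100a11, a calcium-binding protein, which was at 4755, 5031, 4840.3 and 4918 untreated and at 2801, 2912 and 2867 treated (-0.77 ± 0.02 SE). Spp1 (osteopontin) went from 2819, 2749, 2751 and 2798 to 1710.0, 1699 and 1719, and Igfbp4, which binds insulin-like growth factors, from 936, 962, 946 and 946 to 507, 520.4 and 509. Fn1 (fibronectin) fell from 1266, 1198, 1207 and 1249.5 to 641, 617 and 653, and the extracellular chaperone Clu (clusterin) from 531, 552, 536 and 544 to 221, 225 and 221.8. Tm4sf1, a membrane protein, fell by 0.62. Losses were smaller on this scale but larger in fold for the matrix protein Fbln2 (fibulin 2), from 234, 232, 230.4 and 234 to 70.6, 65.9 and 72.7, and the chloride channel regulator Clca3b from 51.02, 48.7, 49.0 and 50.3 to 11.3, 11.2 and 11.6. None of these had overlapping groups. Tuba1b, S100a6, Vim, Tmsb10 and Anxa2 lost signal too but by less than 1.5-fold, and Tmsb10 (-0.14) did not pass the adjusted p after median-ratio or upper-quartile scaling. The noncoding RNA U90926 had the largest fall of any gene tested, from 228, 235, 231 and 229.7 to 3.18, 4.53 and 3.08 (-5.67 ± 0.12 SE, limma adjusted p = 7.4e-11). Gzme and Mcpt8, proteases known from lymphocytes and basophils, fell too (-1.51 and -1.26), though near-identical copies make both uncertain; the summed T and NK markers were at most 0.465 untreated and 1.14 treated.

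Switches from silence were nearly one way. Of all genes in the table, 19 were under 0.1 in every untreated library and at 1 or more in every treated one, and 3 showed the reverse. Of the 19, 6 were in the known lists, such as Nlrc5, Batf2 and Ciita. The others included Il12rb1, Ubd, Apol7e, Apol10b and Tnfsf10, described above, and Serpina3f, at 2.20, 1.54 and 1.87 treated. Snord15a, a small nucleolar RNA, was at 0 in the untreated libraries and at 51.9, 108 and 66.8 in the treated ones, and it lies within the gene of Rps3. The 3 genes that showed the reverse were Exosc6, Prr14l and the trefoil factor Tff3. In the PD-L1 high libraries, also of treated cells, Exosc6 read 0, 2.69 and 1.19 and Tff3 read 1.37, 0.151 and 0.151. Prr14l stayed at 0 there. Snord15a read 0, 69.6 and 26.2 in those libraries, while the other genes switched on stayed at 1 or more. Exosc6 was 3.10, 9.09, 2.89 and 1.89 untreated, with library 2 above the rest, and 0 treated, and Tff3, which was below the filter on the mean and was not tested, was 1.45, 1.04, 1.13 and 1.40 untreated and 0, 0.0921 and 0.0921 treated. A few other large changes rest on untreated or treated libraries that differ widely from each other: Pagr1a was 17.1, 2.94, 8.67 and 11.7 untreated, Ccdc191 7.10, 36.2, 24.03 and 19.8 and Lyst 2.96, 12.5, 8.76 and 6.90, while Agbl1 and Armc3 were 8.47, 20.2 and 12.5 and 5.33, 10.7 and 5.73 treated.

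Among nuclear proteins, splicing factors neither rose nor fell. Of 47 splicing factors 0 rose and 0 fell, at a median of -0.07. By the adjusted p alone 33 differed, beside 61.9% of all genes. Of 77 chromatin modifiers 2 rose, Hdac5 (0.80) and Kat2b (0.83), and 7 fell, among them Setd1b (-0.82) and Ep300 (-0.70), at a median of -0.21, beside 5.75% and 6.7% of all genes; over the alternatives 3 to 10 fell. Of 12 nuclear body genes Sp100 rose from 0.326, 0.199, 0.249 and 0.293 to 2.94, 2.57 and 2.25 and Daxx by 0.73, while Pml differed by -0.02. Sp100 averaged 0.267 untreated and passed the filter only through treated libraries. Of the 3 Schlafen genes tested Slfn2 rose from 63.9, 66.4, 64.1 and 65.8 to 172, 173.3 and 171, and the pseudogene Slfn10-ps fell by 0.99. At the edge of the filter, Gm15787 with a mean of 1 over 10 libraries was the last gene inside and Hspa1l with 0.999 the first outside.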

How the data were processed

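Values are the normalized signal per gene that the authors deposited in 1 table; no source used here gives its unit, the aligner or the counter. The submitters' processing notes name mm10 and CASAVA 1.7. Of 25507 entries 695 without values were not analysed here, 52 symbols with several entries were added up, and 3 columns of group means were not used. Genes whose signal averaged 1 or more across the 10 libraries (11487 of 24755) were tested on log2(signal + 1) with limma 3.58.1 in R 4.3.3, with trend and robust variances, 1 mean per group, all 10 libraries and Benjamini-Hochberg adjustment. The code was tested on simulated data. Members, lists and tests were chosen with earlier results of these data known.

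Genes were named by rule: up to 6 members of each list with the largest change in both fits and no overlap between groups, the 20 largest rises and falls outside the known lists among genes averaging 5 or more in the higher group, the 10 largest gains and losses in signal, and up to 10 genes switched on or off. Other genes, mainly members of a list that did not change, were chosen after their values were seen. Printed promoters are those of 3 leading rises and U90926, with Dtx3l and 3 mitosis genes added; that of Pagr1a, whose untreated libraries differ widely, was left out. 1 gene that the rule names is not reported here. Deviations of same-numbered libraries correlated at -0.196 to 0.104. These values show no pairing by number, but without a reference for paired samples they cannot exclude it. Alternatives were the libraries used, the scaling, the pseudocount, the filter, the variance model, the fold limit and the replicate block.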

Additional observations from a re-analysis of the deposited data

Results flagged for a closer look

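In 4 of the named genes 1 untreated library stood apart from the other 3 by nearly the whole range of the group. Tuba1c was 382 in untreated library 3, beside values of 385 in the others, a gap that is small against its fall. Armc3 was at 0.71 in untreated library 1 and listed at 0 in the others. Ciita was at 0.0223 in untreated library 3 and listed at 0 in the others. Exosc6 was at 9.09 in untreated library 2, above 3.10, 2.89 and 1.89. Chance alone marks about 1 in 20 groups of 4 in this way.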

How the results depend on the processing

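Each count over all genes stayed within 1.5 times under the alternatives run, except for a limit of 2-fold, with which 323 genes rose and 165 fell. The balance did turn: 661 genes rose and 770 fell as reported, but after median-ratio scaling 819 rose and 563 fell, and after upper-quartile scaling 781 and 592. Leaving out 1 of the 7 libraries at a time gave 644 to 685 risen and 745 to 814 fallen genes, and 2399 to 2574 higher and 4032 to 4382 lower genes by the adjusted p alone. With a replicate block, whose pairing by number was not shown, 675 genes rose and 741 fell, and 2487 were higher and 4031 lower. Median-ratio scaling moved the median of all genes from -0.07 to 0.01 and gave 3592 higher and 3384 lower genes; upper-quartile scaling gave 3226 and 3433. A pseudocount of 0.1 gave 772 risen and 1034 fallen genes. Small list counts moved by over 1.5 times: 4 to 10 lysosomal genes rose, 5 to 13 DNA repair genes and 3 to 10 chromatin modifiers fell, and 3 to 6 apolipoprotein L genes rose. Of 213 named genes, none changed sign, 14 were under 1.5-fold in some alternative (among them Ifngr2, Il17rc, Il6ra and Pold1), and Tmsb10 lost its call under both scalings; the cause was not tested. The unit and depth of the signal are unknown, so no limit for a listed 0 can be given, and low genes are the least certain.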
